A study of Homo sapiens with 12 samples.

Results

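The genes described here encode the translation initiation and elongation factors of human cells, the proteins that load messenger RNA and initiator tRNA onto the ribosome and move the ribosome along the message. They were taken as every gene whose symbol begins with EIF and a digit or with EEF, without the eIF2 kinases EIF2AK and without pseudogenes, of which the rule found 0. This gave 66 genes, 65 in the table of the siMapk14 experiment and 66 in that of the siMapk8+9 experiment, out of 17992 genes listed in either. RNA was sequenced from MIO-M1, an established line of human Müller glia, the main glial cell of the retina, on day 3 after siRNA treatment. The groups were siMapk14, with siRNA against MAPK14 (the p38-alpha kinase), and its own siControl, then siMapk8+9, with siRNA against MAPK8 and MAPK9 (the kinases JNK1 and JNK2), and its own siControl, with 3 libraries each. All 4 groups are wild type, and all were given siRNA. The 2 experiments carry different batch labels and share no control. Whether replicates are separate cultures is not stated in the labels, and p-values therefore measure the spread between libraries, which may be technical.

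Initiation begins when eIF2, with GTP and initiator tRNA, joins the small ribosomal subunit together with eIF1, eIF1A, eIF3 and eIF5. The cap of the mRNA is bound by eIF4E, which with the scaffold eIF4G and the helicase eIF4A forms eIF4F, and the 4E-BP proteins block eIF4E from eIF4G. Elongation is driven by eEF1A, which brings aminoacyl-tRNA, by the eEF1B subunits that recharge eEF1A with GTP, and by eEF2, which moves the ribosome to the next codon. MAP kinases reach this machinery through the MNK kinases, which phosphorylate eIF4E downstream of p38 and ERK, and eEF2 is inhibited by its own kinase, eEF2K.

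Many mRNAs of the translation apparatus begin with a C followed by a stretch of pyrimidines, the 5′ terminal oligopyrimidine motif, through which mTOR signalling controls their translation. A promoter window of 300 bases from RefSeq (GRCh38.p14, 250 bases before to 50 after the gene's start) was matched for 53 of the 66 genes. A C followed by at least 5 pyrimidines, beginning between 5 bases before and 10 bases into the transcript and read on the transcribed strand alone, was found in 15 of these 53 (28.3%) and in 1591 of 10996 tested genes with such a window (14.5%). The following windows of 30 bases, with 10 before the RefSeq start and 20 from it, run 5′ to 3′ on the gene's strand. They are shown for 6 genes with such a run, in capitals, and for 3 without one whose changes are described further on.
EEF1A1: cgtgaacgttCTTTTTCgcaacgggtttgc
EEF2: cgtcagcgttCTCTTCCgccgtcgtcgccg
EIF3D: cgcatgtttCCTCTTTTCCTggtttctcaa
EIF3F: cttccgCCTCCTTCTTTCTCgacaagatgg
EIF3M: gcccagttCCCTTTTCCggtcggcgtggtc
EIF4A2: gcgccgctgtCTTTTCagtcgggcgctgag
EIF1: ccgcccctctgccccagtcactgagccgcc
EEF1G: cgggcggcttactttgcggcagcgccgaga
EIF4G1: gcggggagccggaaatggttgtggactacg
They lie at chr6:73521013-73521042 (EEF1A1, minus strand), chr19:3985444-3985473 (EEF2, minus), chr22:36529147-36529176 (EIF3D, minus), chr11:7987327-7987356 (EIF3F, plus), chr11:32583821-32583850 (EIF3M, plus), chr3:186783567-186783596 (EIF4A2, plus), chr17:41688875-41688904 (EIF1, plus), chr11:62573872-62573901 (EEF1G, minus) and chr3:184314596-184314625 (EIF4G1, plus). The annotated start of a gene need not be the one used in these cells. Within the full windows of 300 bases, on both strands, TGATGCAA, the ATF4 element of amino acid response genes, was found in 0 of the 53 genes and 0.473% of the tested genes, TGANTCA, the AP-1 element, in 2 (3.77%) and 4.72%, TGACGTCA, the cAMP response element, in 1 (1.89%) and 3.19%, and CACGTG, the E-box of the MYC family, in 14 (26.4%) and 10.1%. The 1 window with TGACGTCA was that of EEF2.

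Total counts were 14516406 to 19463837 in siMapk14 libraries and 9246294 to 20136463 in siMapk8+9 libraries, against 31040067 to 31510571 in the 6 siControl libraries. Mitochondrially encoded genes took 32.1% to 45.0% of counts in siMapk14 libraries and 36.9%, 8.93% and 35.0% in siMapk8+9 libraries, against 1.56% to 2.03% in the siControl libraries. The targeted kinases were lower in each knockdown: MAPK14 was at 43.6% of its siControl in siMapk14 libraries, and MAPK8 and MAPK9 were at 35.8% and 35.6% in siMapk8+9 libraries, where MAPK14 was also lower, at 66.2% (adjusted p 0.0258). Replicate 2 of siMapk8+9 stands apart. It held the fewest mitochondrial counts of its group. CPM are counts relative to library size, scaled by TMM. The summed epithelial and fibroblast levels are instead relative to nuclear-encoded counts, without TMM. The summed level of 20 epithelial markers was 126 to 129 CPM in the siControl of siMapk8+9. It was 124 and 146 CPM in replicates 1 and 3 of siMapk8+9, and 1813 CPM in replicate 2. KRT14 had 353 CPM there and at most 0.65 CPM in each other library. Among the listed Müller glia markers, VIM and GLUL were abundant in all libraries, while RLBP1 had at most 0.823 CPM and KCNJ10 at most 0.0733 CPM in any. Of the 18 present in the siMapk14 experiment, 7 had all siMapk14 libraries below their siControl, 5 had them above and 6 overlapped. These 6 include ABCA8, at 0 CPM in every library of that experiment, and RLBP1, KCNJ10 and CA2, at most 0.823 CPM there. Of the 17 present with siMapk8+9, 3 lay below, 3 above and 11 overlapped. The summed level of 10 fibroblast genes was 3568 to 4379 CPM in siMapk14 libraries and 3679 to 7665 CPM in siMapk8+9 libraries, against 14301 to 16783 CPM in the siControl libraries. COL1A2 supplied most of that sum. On the TMM scale, which differs from that of the sum, COL1A2 had 2319 to 2770.1 CPM in siMapk14 libraries. It had 2826 to 5402 CPM in siMapk8+9 libraries, against at least 9213 CPM in each siControl library. Of the 10 genes, 9 had all siMapk14 libraries below their siControl and DCN overlapped it. With siMapk8+9, 6 lay below, LUM and PDGFRA overlapped, and DCN (34.5 to 119 CPM, against 19.4 to 21.7 CPM) and POSTN (23.0 to 34.5 CPM, against 15.9 to 16.8 CPM) lay above. The part of these differences in the results below was not tested. Calls of a knockdown against its siControl that changed without replicate 2 of siMapk8+9 are named with each gene, and those of the difference between the knockdowns with that comparison.

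In control cells the level per transcript length, in TPM, was led by EEF1A1, at 3739 ± 49.5 TPM in the siControl of siMapk14 and 3925 ± 89.5 TPM in that of siMapk8+9 (SD, n = 3 each). EEF2 followed at 1165 ± 14.7 and 1136 ± 29.9 TPM. Next in the siControl of siMapk14 came EEF1G at 956 ± 15.3 TPM and EIF4A2 at 944 ± 3.44 TPM, which did not differ beyond their spread, and EIF4A1 at 907 ± 18 TPM. The 66 genes together made up 2.85% ± 0.19 of nuclear-encoded counts in siMapk14 libraries, against 2.07% ± 0.03 in their siControl. In siMapk8+9 libraries the share was 2.94% ± 0.32, against 2.14% ± 0.02 (SD, n = 3 each). EEF1A1 alone supplied 38.6% ± 1.7 of these counts in siMapk14 libraries, against 34.4% ± 0.2, and 41.8% ± 4.2 in siMapk8+9 libraries, against 33.2% ± 0.2. Without EEF1A1 the share was 1.75% ± 0.07 in siMapk14 libraries, against 1.36% ± 0.01, and 1.71% ± 0.07 in siMapk8+9 libraries, against 1.43% ± 0.01. In both experiments the 3 knockdown libraries lay above the 3 siControl libraries. In bulk RNA, fewer cells of a type and less RNA per cell cannot be told apart.

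Relative to the median gene, most translation factor mRNAs were higher in both knockdowns, with the eIF4G scaffolds and the eEF2 kinase as the main exceptions. With siMapk14, 43 of the 64 tested genes were higher and 6 lower than in siControl at an adjusted p under 0.05 (edgeR's quasi-likelihood test, Benjamini-Hochberg over all genes), where 59.9% of all tested genes passed, 29.4% higher and 30.5% lower. With siMapk8+9, 39 of 64 were higher and 10 lower, where 52.9% of all tested genes passed, 26.8% higher and 26.1% lower. The median log2 fold change of the 64 genes was 0.60 with siMapk14, where that of all tested genes was -0.02, and 0.71 with siMapk8+9, where that of all tested genes was -0.05. Of the 43 genes that rose with siMapk14, 37 also rose with siMapk8+9 (86.0% of the 43 and 94.9% of the 39), and the 6 that fell with siMapk14 were all among the 10 that fell with siMapk8+9 (60%). Over the 12869 genes tested in both, 2551 rose in both (67.8% and 73.3% of each list) and 2330 fell in both (58.1% and 68.9%). Changes in opposite directions were few in either set, with 0 of the 64 factor genes and 247 of the 12869 genes. Of the factor genes, 9 passed in neither knockdown. In siMapk14, 45 of the 64 had all 3 knockdown libraries above all 3 siControl libraries and 6 had them all below, where 32.9% and 35.7% of all tested genes did so. In siMapk8+9 the numbers were 40 and 11, against 31.6% and 36.3%. Fold changes are relative to the bulk of nuclear genes. Scaled to total counts, mitochondrial ones included, the median of all genes was -0.79 with siMapk14 and -0.71 with siMapk8+9, that of the factor genes -0.18 and -0.0038, and 11 factor genes were then higher and 26 lower with siMapk14, where 5.53% of all genes were higher and 63.4% lower. With siMapk8+9, 15 were then higher and 15 lower, where 46% of all genes passed, 8.55% higher and 37.4% lower. Without replicate 2 of siMapk8+9, 44 were higher and 10 lower with siMapk8+9, where 71.1% of all genes passed, 33.6% higher and 37.5% lower. With any 1 of its siControl libraries left out, 31 or 32 were higher and 5 lower. EIF1AY, which lies on the Y chromosome, is counted among the tested genes and its values are not given.

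**Figure D1:**
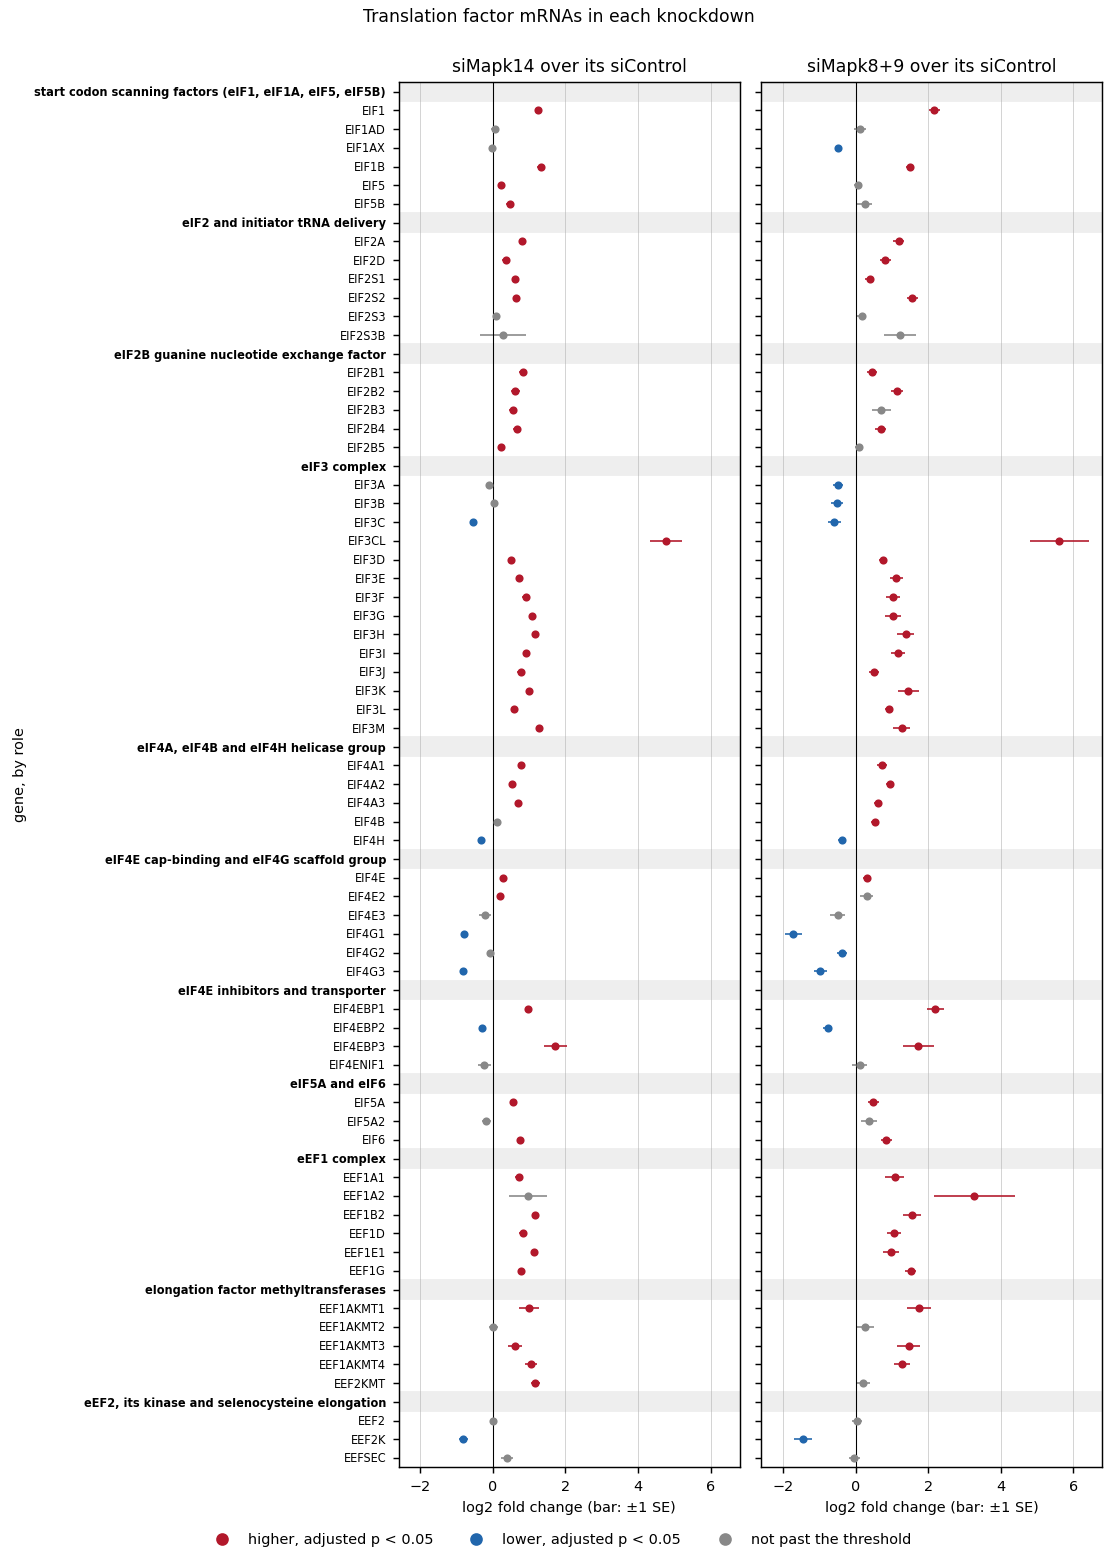
Log2 fold change of 63 translation factor genes in siMapk14 (left) and siMapk8+9 (right), each over its own siControl, with genes grouped by role down the page and bars of ±1 SE. Red points are higher and blue points lower at an adjusted p under 0.05, with grey points past neither. Most points of the eIF2, eIF2B, eIF3 and eEF1 groups are red, and the blue points of both panels include EIF4G1, EIF4G3, EIF4EBP2, EIF4H and EEF2K.

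Length of the transcript moved with the change. The effective length used here is the one that the deposited counts and FPKM imply for each gene. Across all 13076 tested genes with an effective length in siMapk14, fold changes ran lower with longer transcripts (Spearman rho -0.58), and across 12995 in siMapk8+9 likewise (rho -0.59). The same held over the 64 factor genes (rho -0.60 and -0.56), which share these libraries and range from 399 bases for EIF4EBP3 to 7196 bases for EIF4EBP2. All 12 factor genes under 1000 bases were higher with siMapk14, as were 80.5% of all 1247 genes of that length, and the same 12 of 12 were higher with siMapk8+9, against 79.6% of 1218. Among the 13 of 4000 bases or more, 5 were higher and 4 lower with siMapk14, where 8.21% of 4215 genes were higher and 57.0% lower. With siMapk8+9, 3 were higher and 6 lower, where 7.22% of 4224 genes were higher and 51.9% lower. The trend on length of each gene's level, relative to its mean over the libraries, was then removed from each library (called correction for length from here on). After it, 32 factor genes were higher and 5 lower with siMapk14 (median 0.27), where 24.5% and 21.9% of all genes were. With siMapk8+9, 25 were higher and 7 lower (median 0.33), where 38% of all genes passed, 21.7% higher and 16.3% lower. The calls of factor genes that ended or turned on this scale are named with each gene group.

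**Figure D2:**
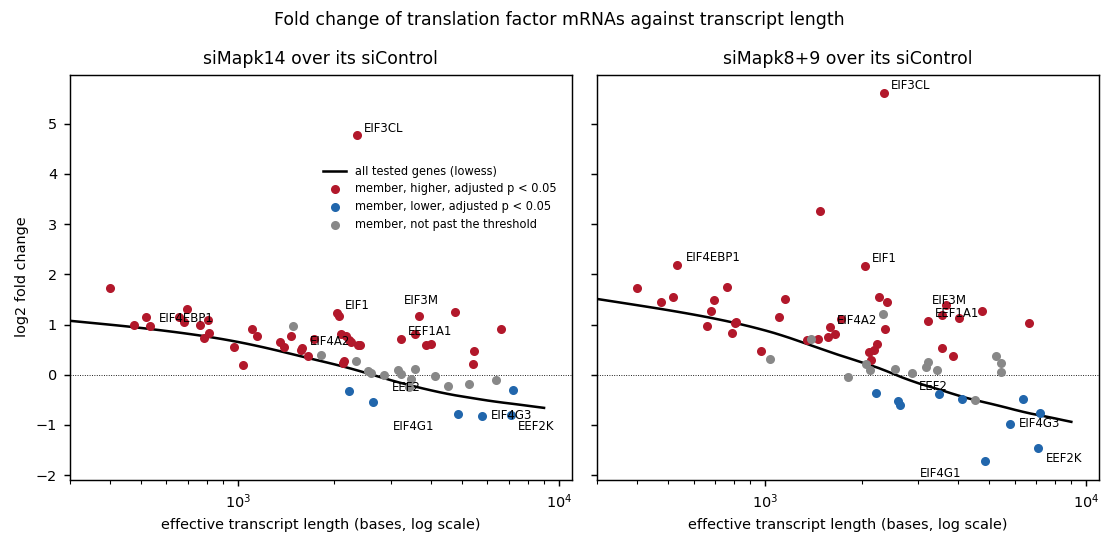
Log2 fold change of each translation factor gene (vertical axis) against effective transcript length in bases (horizontal axis, log scale), in siMapk14 (left) and siMapk8+9 (right). The black line is the lowess trend of all tested genes, and points are coloured by call. EIF3M, EIF1 and EEF1A1 lie above the line and EIF4G1 below it in both panels, while EEF2 stays near 0.

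Among the factors that scan for the start codon, both EIF1 genes rose. EIF1, which keeps the scanning ribosome from stopping at a wrong codon, had 1521, 1459 and 1318 CPM in siMapk14 libraries, against 579, 622 and 625 CPM in their siControl. It had 1608, 1392 and 1880.5 CPM in siMapk8+9 libraries, against 368, 358 and 360.4 CPM in theirs. Every knockdown library lay above every siControl library. The log2 fold changes were 1.23 ± 0.07 (SE, adjusted p 5.46e-06) and 2.17 ± 0.16 (adjusted p 3.47e-04). Its near relative EIF1B had 66.6, 67.7 and 53.1 CPM in siMapk14 libraries, against 24.4, 26 and 24.6 CPM, and 56.9, 50.8 and 59.6 CPM in siMapk8+9 libraries, against 19.6, 20.02 and 19.7 CPM. Neither pair of groups overlapped, and EIF1B rose by 1.32 ± 0.11 (adjusted p 1.39e-05) and 1.49 ± 0.11 (adjusted p 3.67e-04) on the log2 scale. Once the length trend was taken out both genes stayed higher in each knockdown, EIF1 by 1.05 and 1.96 and EIF1B by 0.50 and 0.42. EIF1AX, the X-linked eIF1A, had 121, 127 and 116 CPM in siMapk14 libraries, against 119, 126 and 124 CPM, which overlap. With siMapk8+9 EIF1AX fell, to 149, 154 and 158 CPM, against 222, 213 and 212 CPM in siControl (-0.49 ± 0.10, adjusted p 0.00562). The fall of EIF1AX was not past the threshold without the length trend (-0.02, adjusted p 0.912), and in siMapk14 it was then 0.32 higher (adjusted p 0.00455). EIF5, the GTPase activator of eIF2, rose with siMapk14 by 0.22 ± 0.06 and was 0.05 ± 0.10 with siMapk8+9. EIF5B, which joins the ribosomal subunits, rose with siMapk14 by 0.47 ± 0.12 and was 0.24 ± 0.20 with siMapk8+9. EIF1AD, an eIF1A-like protein, was 0.07 ± 0.11 and 0.12 ± 0.16, past the threshold in neither. Without 1 library calls changed for EIF5 with siMapk14 (adjusted p 0.0644 without siControl replicate 2) and for EIF5B with siMapk8+9, which was then 0.46 higher (adjusted p 1.12e-04 without siMapk8+9 replicate 2). Of the 7 genes of this group, 5 were higher and 0 lower with siMapk14, and 3 higher and 1 lower with siMapk8+9.

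The eIF2 genes moved unevenly. EIF2S2, the beta subunit, had 436, 427 and 386 CPM in siMapk14 libraries, against 269, 265 and 264 CPM, and 584, 467 and 637 CPM in siMapk8+9 libraries, against 198, 189 and 188 CPM. All knockdown libraries were above all siControl libraries, with replicate 2 the lowest of siMapk8+9, and the changes were 0.65 ± 0.06 (adjusted p 3.74e-05) and 1.55 ± 0.15 (adjusted p 6.47e-04). EIF2S1, the alpha subunit that the stress kinases phosphorylate, rose by 0.60 ± 0.07 and 0.38 ± 0.12 (adjusted p 1.23e-04 and 0.0354). EIF2S3, the gamma subunit that binds GTP and initiator tRNA, was 0.10 ± 0.06 and 0.16 ± 0.12, past the threshold in neither. EIF2S3B, a near-identical copy of EIF2S3 that can share its reads, was under 2 CPM in every library and did not pass (0.28 ± 0.64 and 1.22 ± 0.44). The alternative initiator tRNA carriers EIF2A and EIF2D rose in both knockdowns, EIF2A by 0.81 ± 0.07 and 1.19 ± 0.15 and EIF2D by 0.37 ± 0.11 and 0.81 ± 0.15. The call of EIF2D with siMapk14 ended after correction for length (0.04). Of the 5 subunits of eIF2B, which recharges eIF2 with GTP, 5 rose with siMapk14, between 0.23 (EIF2B5) and 0.82 (EIF2B1), and 3 with siMapk8+9, EIF2B2 the most (1.13 ± 0.17). EIF2B3 was 0.71 ± 0.26 and EIF2B5 0.09 ± 0.10 with siMapk8+9. After the length trend was taken out, 2 of the 5 were higher with siMapk14 and 1 with siMapk8+9. The calls that ended were those of EIF2B3, EIF2B4 and EIF2B5 with siMapk14 (0.11, 0.19 and 0.07) and of EIF2B1 and EIF2B4 with siMapk8+9 (0.26 and 0.08). Leaving out any 1 siControl library ended the calls of EIF2D and EIF2B5 with siMapk14 (adjusted p up to 0.0709 and 0.0917) and those of EIF2S1 and EIF2B1 with siMapk8+9 (up to 0.134 and 0.126). The calls of EIF2S1 and EIF2B1 also ended without siMapk8+9 replicate 1, and that of EIF2S1 without replicate 3. Without siMapk8+9 replicate 2, EIF2B3, EIF2S3 and EIF2S3B were higher with siMapk8+9, by 0.98, 0.25 and 1.48 (adjusted p 1.49e-05, 0.00156 and 0.0184).

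The eIF3 complex, the largest initiation factor and a bridge between the small subunit and eIF4F, held 14 of the genes, of which 11 rose in each knockdown. These 11 include EIF3CL, a near-identical copy of EIF3C described below, whose call ended when the pair was summed. The EIF3M subunit had 279, 285 and 259 CPM in siMapk14 libraries, against 113, 114 and 116 CPM in siControl. In siMapk8+9 libraries EIF3M had 381, 215 and 407 CPM, against 138, 139 and 141 CPM. Knockdown and siControl libraries did not overlap, and replicate 2 was again the lowest of siMapk8+9. EIF3M rose by 1.26 ± 0.06 (adjusted p 2.78e-06) and 1.26 ± 0.24 (adjusted p 0.00526), and without the length trend by 1.68 and 1.87. EIF3H, EIF3G, EIF3K, EIF3I, EIF3F, EIF3J, EIF3E, EIF3L and EIF3D also rose in both, between 0.49 (EIF3D) and 1.17 (EIF3H) with siMapk14 and between 0.50 (EIF3J) and 1.45 (EIF3K) with siMapk8+9. The large RNA-binding core subunits fell or did not pass: EIF3A was -0.11 ± 0.06 with siMapk14 and fell by 0.49 on the log2 scale with siMapk8+9 (adjusted p 0.0195), and EIF3B was 0.03 ± 0.06 with siMapk14 and fell by 0.53 with siMapk8+9 (adjusted p 0.0326). After removal of the trend EIF3A was 0.43 with siMapk14 (adjusted p 6.20e-04) and 0.28 with siMapk8+9 (adjusted p 0.163), and 10 of the 14 genes were higher and 1 lower with siMapk14 and 7 higher and 2 lower with siMapk8+9. The calls of EIF3D and EIF3K ended on this scale in both knockdowns, at 0.14 and 0.04 with siMapk14 and 0.31 and 0.11 with siMapk8+9. With siMapk8+9 those of EIF3J (0.35, adjusted p 0.0731) and EIF3G (-0.0017, adjusted p 0.991) ended too. With any 1 siControl library left out the calls of EIF3A, EIF3B and EIF3J with siMapk8+9 ended (adjusted p up to 0.0784, 0.101 and 0.0922), as did those of EIF3B and EIF3J without siMapk8+9 replicate 1 or 3.

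The largest fold change of all factor genes belonged to EIF3CL, a near-identical copy of the core subunit gene EIF3C on chromosome 16 (EIF3CL chr16:28379581-28426418 and EIF3C chr16:28688558-28735730, GRCh38.p14). EIF3CL had 46.4, 74.7 and 37.9 CPM in siMapk14 libraries, against 0.756, 1.73 and 3.29 CPM, and 129.6, 20.1 and 114 CPM in siMapk8+9 libraries, against 2.78, 1.13 and 1.39 CPM. EIF3C had 157, 139 and 159.7 CPM in siMapk14 libraries, against 231, 218 and 212 CPM, and 116, 186 and 162 CPM in siMapk8+9 libraries, against 235, 234 and 234 CPM. The 2 copies moved in opposite directions, EIF3CL by 4.77 ± 0.44 and 5.61 ± 0.80 and EIF3C by -0.54 ± 0.07 and -0.60 ± 0.18 (adjusted p 2.85e-05, 0.00206, 2.02e-04 and 0.028). Reads that match both copies were divided between them by estimation, so that the split is uncertain. Summed over the pair, the level was 203, 214 and 198 CPM in siMapk14 libraries, against 232, 220.1 and 215 CPM, and 246, 207 and 276 CPM in siMapk8+9 libraries, against 238, 236 and 235 CPM. The sum changed by -0.12 ± 0.06 (adjusted p 0.114) and 0.04 ± 0.13 (adjusted p 0.812), so that both calls end when the copies are taken as 1 gene. The call of EIF3C with siMapk8+9 also ended with any 1 siControl library left out or without siMapk8+9 replicate 3 (adjusted p up to 0.0803). EIF3CL was given 19.2% to 35.0% of the sum in siMapk14 libraries, against 0.326% to 1.53%, and 9.72% to 52.7% in siMapk8+9 libraries, against 0.481% to 1.17%.

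Of the helicase group, the eIF4A genes rose and EIF4H, a helper of the helicase, fell. EIF4A1, the main eIF4A of growing cells, had 1029.9, 1096 and 896 CPM in siMapk14 libraries, against 605, 589.5 and 572 CPM, and 1052, 942 and 1184 CPM in siMapk8+9 libraries, against 635, 646 and 652 CPM. EIF4A2, its paralogue, had 966, 1022 and 899 CPM in siMapk14 libraries, against 669, 668 and 663 CPM, and 1031, 1001 and 1102 CPM in siMapk8+9 libraries, against 542, 545 and 542 CPM. In all 4 cases the groups stood apart. EIF4A1 rose by 0.77 ± 0.08 and 0.72 ± 0.14 (adjusted p 5.80e-05 and 0.00558) and EIF4A2 by 0.53 ± 0.07 and 0.94 ± 0.12 (adjusted p 1.36e-04 and 0.00149). The ratio of EIF4A1 to EIF4A2 in TPM was 1.16, 1.16 and 1.08 in siMapk14 libraries, against 0.983, 0.96 and 0.939, and 1.11, 1.02 and 1.17 in siMapk8+9 libraries, against 1.28, 1.29 and 1.31. It was thus higher in siMapk14 and lower in siMapk8+9 than in the siControl of the same experiment, with no overlap of libraries. Between the experiments the 2 knockdown groups overlapped in this ratio, while the 2 siControl groups did not. EIF4A3, the eIF4A relative of the exon junction complex, rose by 0.69 ± 0.08 and 0.62 ± 0.12. EIF4H had 355, 360.4 and 373 CPM in siMapk14 libraries, against 454, 451 and 450.2 CPM, and 371, 394 and 363 CPM in siMapk8+9 libraries, against 490.4, 481 and 492 CPM. All knockdown libraries were below all siControl libraries, with changes of -0.32 ± 0.05 (adjusted p 9.45e-04) and -0.37 ± 0.11 (adjusted p 0.0257). EIF4B, which stimulates eIF4A and is a target of S6 kinase, was 0.11 ± 0.05 with siMapk14 and rose by 0.52 ± 0.10 with siMapk8+9. The call of EIF4H with siMapk8+9 ended with any 1 siControl library left out (adjusted p up to 0.11), and EIF4B passed with siMapk14 without siMapk14 replicate 3 (adjusted p 0.0306). The rise of EIF4A1 with siMapk8+9 was not past the threshold after correction for length (0.19, adjusted p 0.137).

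The scaffolds EIF4G1 and EIF4G3 were, with EEF2K, the factor genes that fell the most. EIF4G1, the main scaffold of eIF4F, had 276, 268 and 314 CPM in siMapk14 libraries, against 508, 501 and 472 CPM in siControl, and 165, 288 and 175 CPM in siMapk8+9 libraries, against 669, 688 and 719.8 CPM. It was lower in all 6 knockdown libraries than in any of their siControl libraries, with replicate 2 the least low of siMapk8+9. The changes were -0.79 ± 0.07 (adjusted p 3.30e-05) and -1.72 ± 0.23 (adjusted p 0.00176), and -2.01 without siMapk8+9 replicate 2. They were smaller after correction for length (-0.36, adjusted p 9.18e-04, and -1.16, adjusted p 0.00256). EIF4G3, a second scaffold, had 55.9, 52.1 and 59.4 CPM in siMapk14 libraries, against 101, 97.7 and 96.6 CPM, and 48.9, 67.1 and 40.9 CPM in siMapk8+9 libraries, against 104, 104 and 103 CPM. Its groups did not overlap either, and it fell by 0.82 and 0.98 on the log2 scale (adjusted p 1.79e-05 and 0.005). Corrected for length, the fall of EIF4G3 was -0.31 with siMapk14 (adjusted p 0.00238) and -0.30 with siMapk8+9 (adjusted p 0.0896), where the call ended. EIF4G2, a relative that lacks the eIF4E-binding site, had 744, 784 and 709 CPM in siMapk14 libraries, against 813, 762 and 782 CPM, with overlap. In siMapk8+9 libraries EIF4G2 had 1049, 1082 and 1080.0 CPM, against 1401, 1377 and 1411 CPM, with none, a change of -0.38 ± 0.13 (adjusted p 0.0405) that ended after correction for length (-0.06). It also ended with any 1 siControl library left out and without siMapk8+9 replicate 1 or 3 (adjusted p up to 0.152). The TPM ratio of EIF4G1 to EIF4G2 was 0.268, 0.25 and 0.32 in siMapk14 libraries, against 0.447, 0.469 and 0.432, and 0.114, 0.192 and 0.117 in siMapk8+9 libraries, against 0.34, 0.355 and 0.363.

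Changes of the cap-binding protein genes were small. EIF4E, which binds the cap and is the target of the MNK kinases, had 76.5, 64.5 and 68.8 CPM in siMapk14 libraries, against 56.7, 59.4 and 58.8 CPM, and 95.3, 81.4 and 93.4 CPM in siMapk8+9 libraries, against 74.6, 71.8 and 72.4 CPM. The groups did not overlap, and EIF4E rose by 0.26 ± 0.08 (adjusted p 0.0172) and 0.30 ± 0.10 (adjusted p 0.0446). Both calls ended with any 1 siControl library left out (adjusted p up to 0.0765 and 0.176) and that with siMapk8+9 also without siMapk8+9 replicate 1 or 3. They ended when the trend on the effective length, 2138 bases for EIF4E, was taken out (0.11 and 0.13), and grew on the annotated length of 11523 bases (0.96 and 1.33). EIF4E2, a cap-binding protein that acts as a repressor, had 82.9, 85.2 and 74.4 CPM in siMapk14 libraries, against 72.2, 70.6 and 69.8 CPM (0.19 ± 0.07, adjusted p 0.0458), and 99.9, 82.5 and 132 CPM in siMapk8+9 libraries, against 85.6, 85.7 and 82.8 CPM (0.30 ± 0.17, adjusted p 0.182). Corrected for length, EIF4E2 was lower in both, at -0.44 (adjusted p 4.07e-04) and -0.54 (adjusted p 0.0103). The call of EIF4E2 with siMapk14 ended in 5 of 6 fits without 1 library (adjusted p up to 0.153), and without siMapk8+9 replicate 2 EIF4E2 rose with siMapk8+9 (0.46, adjusted p 0.00521). EIF4E3, the rarest of the 3, had 10.9, 10.7 and 7.65 CPM in siMapk14 libraries, against 11.7, 10.8 and 11.3 CPM, and 17.1, 13.9 and 9.75 CPM in siMapk8+9 libraries, against 19.6, 19.7 and 18.6 CPM. The groups overlapped with siMapk14 and not with siMapk8+9, and EIF4E3 passed in neither (-0.23 ± 0.16 and -0.50 ± 0.21, with an adjusted p of 0.0296 for siMapk8+9 without siMapk8+9 replicate 1). EIF4E1B, an oocyte form listed for siMapk8+9 alone, had 0, 0 and 0.812 CPM in siMapk8+9 libraries, against 0 in all 3 siControl libraries, and was not tested.

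The 4E-BP inhibitors of eIF4E split by gene. EIF4EBP1, a 4E-BP that mTOR phosphorylates, had 136, 147 and 128 CPM in siMapk14 libraries, against 66.8, 72.1 and 70.4 CPM. In siMapk8+9 libraries EIF4EBP1 had 247, 134 and 233 CPM, against 42.6, 44.3 and 47.1 CPM. All knockdown libraries were higher, replicate 2 the least so of siMapk8+9, and the changes were 0.98 ± 0.07 (adjusted p 9.17e-06) and 2.19 ± 0.24 (adjusted p 9.21e-04). With an effective length of 533 bases, EIF4EBP1 kept the call with siMapk8+9 when the length trend was removed (0.94, adjusted p 0.0012) and not with siMapk14 (0.07, adjusted p 0.334). EIF4EBP2, a second inhibitor with an effective length of 7196 bases, had 35.8, 35.5 and 39.4 CPM in siMapk14 libraries, against 49.1, 42.8 and 45.3 CPM, and 39.2, 45 and 35.1 CPM in siMapk8+9 libraries, against 70.3, 67.5 and 66.1 CPM. Its groups did not overlap, and EIF4EBP2 fell by 0.31 and 0.77 on the log2 scale (adjusted p 0.0137 and 0.00284). That direction turned after correction for length, to 0.28 (adjusted p 0.0185) and 0.05 (adjusted p 0.664). EIF4EBP3, the third 4E-BP, had 4.59, 8.43 and 4.2 CPM in siMapk14 libraries, against 1.47, 1.77 and 1.92 CPM, and 6.2, 3.96 and 2.13 CPM in siMapk8+9 libraries, against 1.5, 1.07 and 1.11 CPM. It rose without overlap, by 1.72 ± 0.33 and 1.73 ± 0.43 (adjusted p 0.00177 and 0.0144), and neither call held after correction for length (0.71 and 0.45). Without siControl replicate 2 or 3 the call of EIF4EBP3 with siMapk8+9 ended (adjusted p up to 0.0703), and without siControl replicate 1 that of EIF4EBP2 with siMapk14 (adjusted p 0.072). EIF4ENIF1, the transporter that carries eIF4E into the nucleus, was -0.24 ± 0.19 and 0.10 ± 0.20 and passed in neither (adjusted p 0.0154 for siMapk14 without siMapk14 replicate 1). The TPM ratio of EIF4EBP1 to EIF4E was 6.93, 8.77 and 7.21 in siMapk14 libraries, against 4.76, 4.84 and 4.76, and 10.3, 6.73 and 10.1 in siMapk8+9 libraries, against 2.42, 2.55 and 2.67. This ratio sets a short transcript against a longer one.

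**Figure D3:**
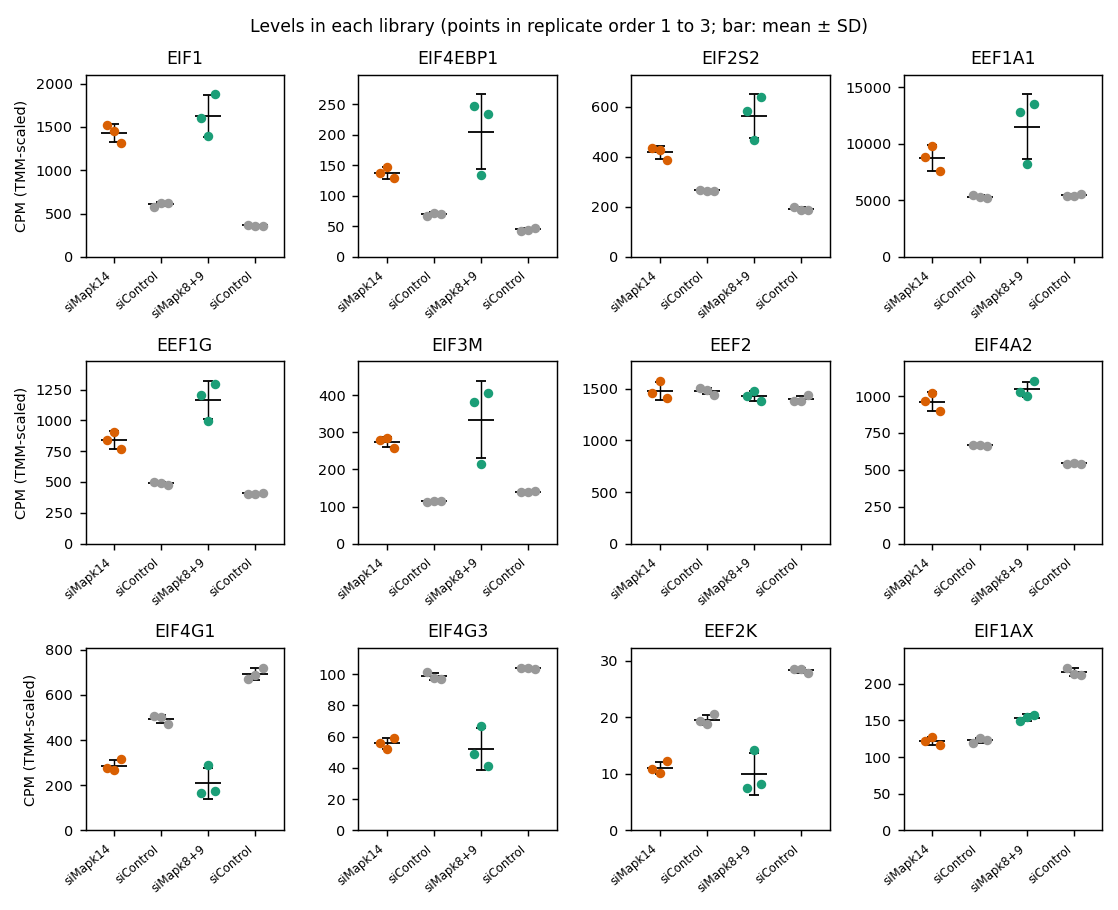
Level of 12 translation factor genes in each library, in TMM-scaled CPM on linear axes from 0, with siMapk14 left of its siControl and siMapk8+9 left of its siControl in each panel. Points are libraries in the order of replicate 1 to 3, and bars are the mean ± SD (n = 3). The middle point of siMapk8+9, replicate 2, lies nearest to the siControl points for EIF4EBP1, EIF3M, EEF1A1, EIF4G1 and EEF2K, and the EEF2 points of knockdown and siControl overlap.

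Outside the cap complex, EIF5A and EIF6 rose in counts. EIF5A, the factor that carries hypusine and eases stalled elongation, had 460.1, 501 and 433 CPM in siMapk14 libraries, against 327, 316 and 308 CPM, and 560.4, 417 and 535 CPM in siMapk8+9 libraries, against 342, 371 and 368 CPM. The groups stood apart, with changes of 0.55 ± 0.07 (adjusted p 1.46e-04) and 0.48 ± 0.15 (adjusted p 0.0304). EIF5A has an effective length of 974 bases, and corrected for it EIF5A was -0.11 (adjusted p 0.0881) and -0.40 (adjusted p 0.0121), so that the direction turned. The call of EIF5A with siMapk8+9 ended with any 1 siControl library left out and without siMapk8+9 replicate 1 or 3 (adjusted p up to 0.13). Its paralogue EIF5A2 had 16.6, 22.3 and 23.2 CPM in siMapk14 libraries, against 22, 24.2 and 24.3 CPM, and 21.5, 23.5 and 36.7 CPM in siMapk8+9 libraries, against 22, 21.3 and 19.7 CPM, with overlap in both, and was -0.18 ± 0.14 and 0.37 ± 0.22. EIF6, which keeps the large subunit from joining too early, rose by 0.73 ± 0.08 and 0.84 ± 0.15, and was -0.03 and -0.19 after correction for length, where both calls ended. EIF5AL1, a near-identical copy of EIF5A, had at most 0.738 CPM in siMapk14 libraries and 0.587 CPM in siMapk8+9 libraries, against at most 0.101 and 0.129 CPM in their siControl libraries, and was too low for the test of either knockdown.

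In the eEF1 group, which delivers aminoacyl-tRNA during elongation, 5 of 6 genes rose with siMapk14 and 6 with siMapk8+9. EEF1A1, whose start is printed above and whose reads may be shared with its many processed copies, had 8866, 9824 and 7579 CPM in siMapk14 libraries, against 5459, 5319.6 and 5213 CPM. In siMapk8+9 libraries EEF1A1 had 12814, 8210.3 and 13541 CPM, against 5411, 5371 and 5564 CPM. No knockdown library fell within the range of its siControl, and EEF1A1 rose by 0.72 ± 0.11 (adjusted p 4.36e-04) and 1.08 ± 0.26 (adjusted p 0.0126, up to 0.067 with any 1 siControl library left out). EEF1G, the gamma subunit of eEF1B, had 840.0, 909 and 767 CPM in siMapk14 libraries, against 497, 492 and 476 CPM, and 1202, 993 and 1298 CPM in siMapk8+9 libraries, against 404, 406 and 412 CPM. Its groups stood apart, with rises of 0.78 ± 0.07 (adjusted p 3.20e-05) and 1.51 ± 0.15 (adjusted p 6.68e-04). The exchange subunits EEF1B2 and EEF1D rose as well, EEF1B2 by 1.16 ± 0.09 and 1.55 ± 0.25 and EEF1D by 0.83 ± 0.10 and 1.05 ± 0.20. EEF1E1, named for eEF1 but a scaffold of the tRNA synthetase complex, rose by 1.14 ± 0.10 and 0.98 ± 0.22. Corrected for length, 4 of the 6 rose with siMapk14 and 2 with siMapk8+9, EEF1A1 (1.36) and EEF1G (0.76). The calls of EEF1D ended in both knockdowns (0.07 and 0.02), and with siMapk8+9 also those of EEF1B2 (0.27), EEF1E1 (-0.17) and EEF1A2 (2.85, adjusted p 0.0897). EEF1A2, the eEF1A of neurons and muscle, was rare, with 1.56, 0.406 and 1.35 CPM in siMapk14 libraries, against 0.562, 0.514 and 0.661 CPM. It had 1.32, 6.88 and 0 CPM in siMapk8+9 libraries, where the count of 0 in replicate 3 allows up to 0.487 CPM, against 0.298, 0.323 and 0.3 CPM. The groups overlapped, replicate 2 supplied most of that level, and the call (3.27 ± 1.11, adjusted p 0.044) ended without it (1.16, adjusted p 0.298). It ended as well without siMapk8+9 replicate 1 or any 1 siControl library, and with siMapk14 EEF1A2 passed without siMapk14 replicate 2 (adjusted p 0.0166).

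The methyltransferases that modify elongation factors rose in part. EEF1AKMT1, which methylates a lysine of eEF1A, had 4.09, 7.52 and 5.53 CPM in siMapk14 libraries, against 2.81, 3.23 and 2.52 CPM, and 11, 5.09 and 10.4 CPM in siMapk8+9 libraries, against 2.89, 2.36 and 2.47 CPM. There was no overlap, and the rises were 0.99 ± 0.27 and 1.75 ± 0.34 (adjusted p 0.0109 and 0.00549), neither of which held after correction for length. EEF1AKMT3 and EEF1AKMT4, 2 further eEF1A methyltransferases, rose in both knockdowns, EEF1AKMT3 by 0.60 ± 0.20 and 1.45 ± 0.31 and EEF1AKMT4 by 1.05 ± 0.17 and 1.28 ± 0.21. Corrected for length, EEF1AKMT4 was 0.23 and 0.23 and EEF1AKMT3 was 0.54 with siMapk14 (adjusted p 0.302, 0.537 and 0.0513), so that these calls ended. With siMapk14 the call of EEF1AKMT3 ended in 5 of 6 fits without 1 library (adjusted p up to 0.1) and that of EEF1AKMT1 without siControl replicate 3 (adjusted p 0.0543). EEF1AKMT2 was 0.01 ± 0.12 and 0.25 ± 0.25, with an adjusted p of 0.0180 for siMapk8+9 without siMapk8+9 replicate 3. EEF2KMT, which methylates eEF2, had 30.3, 28.5 and 23.3 CPM in siMapk14 libraries, against 12.4, 12 and 12.1 CPM, with no overlap (1.16 ± 0.12, adjusted p 5.80e-05). In siMapk8+9 libraries EEF2KMT had 30.6, 20.7 and 27.5 CPM, against 21.5, 22.6 and 23.4 CPM, with overlap (0.21 ± 0.17, adjusted p 0.326), and it passed without siMapk8+9 replicate 2 (0.38, adjusted p 0.0113). Between the experiments the knockdown libraries overlapped in CPM of EEF2KMT, while the siControl libraries did not.

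EEF2, the translocase, passed in neither knockdown, while its kinase fell. EEF2 had 1460.0, 1577 and 1408 CPM in siMapk14 libraries, against 1507, 1485 and 1444 CPM, and 1428, 1481 and 1384 CPM in siMapk8+9 libraries, against 1385, 1386 and 1437 CPM. The groups overlapped in both experiments, with changes of 0.00 ± 0.07 (adjusted p 0.971) and 0.03 ± 0.13 (adjusted p 0.865). EEF2 and EEF1A1 both carry the pyrimidine run at their start, and EEF1A1 rose while EEF2 did not pass. EEF2K, which phosphorylates and inhibits eEF2, had 10.8, 10.2 and 12.3 CPM in siMapk14 libraries, against 19.4, 18.8 and 20.6 CPM, and 7.46, 14.3 and 8.29 CPM in siMapk8+9 libraries, against 28.6, 28.6 and 27.8 CPM. All knockdown libraries were lower, replicate 2 the least so of siMapk8+9, and EEF2K fell by 0.81 and 1.46 on the log2 scale (adjusted p 3.84e-04 and 0.00385). Corrected for length, the fall of EEF2K was -0.23 with siMapk14 (adjusted p 0.118), where the call ended, and -0.67 with siMapk8+9 (adjusted p 0.0307). EEFSEC, the elongation factor for selenocysteine, was 0.39 ± 0.16 (adjusted p 0.0584) and -0.04 ± 0.15 (adjusted p 0.837), and passed with siMapk14 without siMapk14 replicate 3 (adjusted p 0.00527). Of the 15 genes with a pyrimidine run, 10 were higher and 1 lower with siMapk14 and 9 higher and 2 lower with siMapk8+9, with a median effective length of 2337 bases. Of the 35 tested genes whose window holds none, with a median of 2229 bases, 21 were higher and 5 lower with siMapk14 and 18 higher and 7 lower with siMapk8+9. The median log2 fold change was 0.49 with a run and 0.47 without one in siMapk14, and 0.81 and 0.38 in siMapk8+9. Corrected for length it was 0.18 with a run and 0.23 without one in siMapk14, where the order turned, and 0.39 and 0.19 in siMapk8+9.

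The 2 knockdowns were compared with each other as the siMapk14 effect minus the siMapk8+9 effect, in 1 fit of all 12 libraries. Of 65 factor genes tested, 9 passed, 3 with a higher and 6 with a lower effect of siMapk14, where 15.9% of all tested genes passed, 6.87% higher and 9.02% lower. The start factors EIF1 (-0.94 ± 0.17, adjusted p 0.00294) and EIF2S2 (-0.91 ± 0.16, adjusted p 0.00239) rose less with siMapk14 than with siMapk8+9, as did EIF4EBP1 (-1.22 ± 0.25, adjusted p 0.00618) and EEF1G (-0.74 ± 0.16, adjusted p 0.0081). EIF4B and EIF4A2 also had the smaller effect with siMapk14 (-0.42 ± 0.11 and -0.42 ± 0.13, adjusted p 0.0221 and 0.0437). EIF4G1 (0.92 ± 0.25, adjusted p 0.0244) fell less with siMapk14. The difference was also positive for EIF1AX (0.46 ± 0.11, adjusted p 0.0114), which passed against siControl with siMapk8+9 alone, and for EEF2KMT (0.95 ± 0.21, adjusted p 0.0104), which passed with siMapk14 alone. Scaled to total counts, 6 passed, 1 higher and 5 lower, where 7.53% of all genes did, and after correction for length 11 passed, 5 higher and 6 lower, where 7.48% and 11.1% of all genes did and the difference of EIF1AX did not pass (0.34, adjusted p 0.0664). The differences of EIF4A2, EIF4B and EIF4G1 did not pass when any 1 of the 6 siControl libraries was left out (adjusted p up to 0.117, 0.0736 and 0.0669). That of EIF4A2 also did not pass without siMapk14 replicate 1 or 3 or siMapk8+9 replicate 3, nor that of EIF4G1 without siMapk14 replicate 3. For the eIF3 genes, 0 of 14 passed, with differences between -0.84 (EIF3CL) and 0.55 (EIF3B). Their differences have SEs of 0.11 (EIF3L) to 0.92 (EIF3CL). Without replicate 2 of siMapk8+9, 29 factor genes passed, 10 with a higher and 19 with a lower effect of siMapk14, where 37.0% of all genes passed, and all 9 named above were among them. Of the eIF3 genes 7 then passed, EIF3B (0.79, adjusted p 2.6e-05) and EIF3A (0.39, adjusted p 0.0330) with a higher effect of siMapk14 and EIF3K, EIF3E, EIF3H, EIF3I and EIF3L with a lower one, between -0.70 (EIF3K) and -0.36 (EIF3L), so that the count of 0 with all libraries rests on that library. Gained as well were EEF2K, EIF4EBP2, EIF4G3, EIF4G2 and EIF5 with a higher effect of siMapk14, between 0.22 (EIF5) and 1.08 (EEF2K). EEF1A1, EEF1B2, EEF1D, EEF1AKMT1, EEF1AKMT3, EIF2A, EIF2B2 and EIF2D were gained with a lower one, between -1.02 (EEF1AKMT1) and -0.37 (EEF1D).

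**Figure D4:**
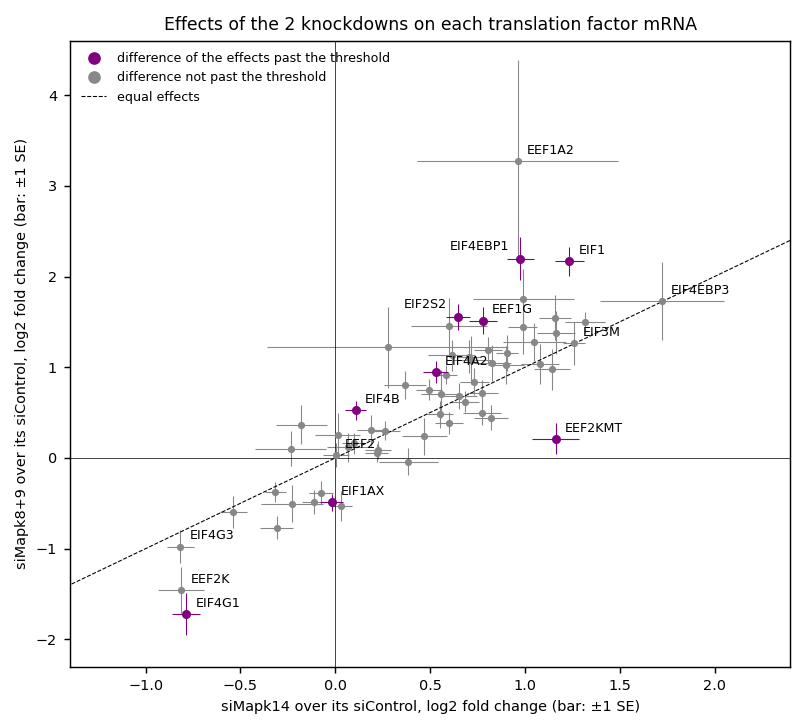
Log2 fold change with siMapk8+9 (vertical axis) against that with siMapk14 (horizontal axis), each over its own siControl, for the translation factor genes tested in both without EIF3CL, which lies outside the range at 4.77 and 5.61. Bars are ±1 SE, the dashed line marks equal effects, and purple points are the 9 genes whose difference passed. EIF1, EIF4EBP1, EIF2S2 and EEF1G lie above the line and EIF4G1, EIF1AX and EEF2KMT below it.

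Outside the factors themselves, 101 other genes of translation were counted in 8 lists, of which 57 were higher and 18 lower with siMapk14, where 29.4% and 30.5% of all tested genes were. Of the 100 tested with siMapk8+9, 48 were higher and 22 lower, where 26.8% and 26.1% of all tested genes were. Their median log2 fold changes were 0.35 and 0.36. Fold changes of single genes in the 8 lists, here and below, are given without correction for length. With that correction the lower calls went from 18 to 6 with siMapk14 and from 22 to 6 with siMapk8+9. The cytosolic aminoacyl-tRNA synthetases, which charge tRNA, had 14 of 22 higher and 4 lower with siMapk14 and 14 higher and 2 lower with siMapk8+9. GARS1, the glycyl-tRNA synthetase, rose by 0.58 ± 0.06 and 1.84 ± 0.13, and SARS1, the seryl-tRNA synthetase, by 0.68 ± 0.06 and 1.53 ± 0.13. Between the knockdowns 11 of the 22 differed, 2 with a higher and 9 with a lower effect of siMapk14, where 15.9% of all tested genes did, 6.87% higher and 9.02% lower. Among the kinases and regulators of eIF4E, eIF4B and S6, 5 of 11 were higher and 3 lower with siMapk14 and 4 of 10 higher and 4 lower with siMapk8+9. MKNK2, which encodes the eIF4E kinase MNK2, rose by 0.69 ± 0.09 and 0.89 ± 0.09, while RPTOR and MTOR of the mTOR complex fell by 1.16 and 0.95 on the log2 scale with siMapk8+9. Of the eIF2 kinases and phosphatase subunits, 4 of 13 were higher and 3 lower with siMapk14 and 5 higher and 4 lower with siMapk8+9, with siMapk14 close to the shares over all genes. PPP1R15A (GADD34), which directs phosphatase to eIF2, rose by 0.61 ± 0.09 and 1.69 ± 0.14, and EIF2AK4 (GCN2), a kinase of eIF2, fell by 0.61 and 0.74.

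The poly(A)-binding proteins and mRNA-specific repressors had 7 of 13 higher and 3 lower with siMapk14 and 6 higher and 5 lower with siMapk8+9, with PAIP2, an inhibitor of poly(A)-binding protein, at 0.98 ± 0.08 and 2.15 ± 0.11 and LARP1, which binds pyrimidine-run mRNAs, at -0.78 ± 0.07 and -1.32 ± 0.11. Of the termination, recycling and rescue factors 7 of 15 were higher and 5 lower with siMapk14 and 3 higher and 6 lower with siMapk8+9. For this list and the others here, the shares over all tested genes were 29.4% higher and 30.5% lower with siMapk14. With siMapk8+9 they were 26.8% and 26.1%. The lower calls of the termination list with siMapk14 were near that share, and its higher calls with siMapk8+9 were below it. PELO and MCTS1, which act in ribosome rescue and recycling, rose in both, PELO by 0.62 ± 0.06 and 1.26 ± 0.11 and MCTS1 by 0.82 ± 0.09 and 1.20 ± 0.24. The enzymes that make hypusine on eIF5A and diphthamide on eEF2 had 6 of 9 higher with siMapk14 and 4 with siMapk8+9, with 0 lower in either. DPH5 of the diphthamide path rose by 1.08 ± 0.15 and 0.90 ± 0.21. The mitochondrial translation factors had 7 of 10 higher and 0 lower with siMapk14 and 6 higher and 1 lower with siMapk8+9, where GFM1, the mitochondrial elongation factor G, fell by 0.76, and MTIF3, an initiation factor, rose by 1.09 ± 0.13 and 1.68 ± 0.25. Of 8 genes that work beside eIF6 or on the ribosome surface, 7 were higher with siMapk14 and 6 with siMapk8+9, with 0 lower in either, among them TPT1 (1.15 ± 0.09 and 2.15 ± 0.22). After correction for length, 59 of the 100 genes then tested were higher and 6 lower with siMapk14, where 24.5% and 21.9% of all genes were, and 43 higher and 6 lower with siMapk8+9, where 21.7% and 16.3% were.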

How the data were processed

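RNA from MIO-M1 cells was sequenced in 12 libraries, 3 in each of 4 groups, on day 3 after siRNA treatment; per the labels' protocols, poly(A) RNA was captured and primed with random hexamers. The authors deposited, for each experiment, expected counts per gene, estimated per the submitters' processing notes with RSEM 1.3.1 after Bowtie2 2.3.4.3 on GRCh38.p14, which divide shared reads between similar genes. The same tables hold TPM and FPKM that the authors deposited beside the counts. TPM was used for levels within control libraries and for ratios between genes, and FPKM to derive each gene's effective length. Another 12 per-library columns of normalized counts were not used. The role of the DESeq2 1.4.5 named in those notes is not given in the sources used here.

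Expected counts were rounded and tested with edgeR 4.0.16 (R 4.3.3), with filterByExpr (minimum count 10, minimum total 15), TMM factors and the robust quasi-likelihood test, and Benjamini-Hochberg adjustment over all genes tested at a threshold of 0.05. Each knockdown was fitted with its own siControl, and the difference between knockdowns in 1 fit of the 12 libraries. Levels in CPM use the TMM-scaled library size, so that mitochondrial counts, up to 45.0% of a library, weigh little on them. The summed levels of the epithelial and fibroblast lists are relative to nuclear-encoded counts, without TMM. Counts of 0 and their limits (3 counts) cover counting error only.

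For the correction for length, each gene's mean log2 CPM over the libraries was first subtracted. A lowess curve (span 0.3) of these deviations on effective length was then removed from each library. Alternatives were other scalings, no filter, DESeq2 1.42.0, limma-voom (limma 3.58.1), the replicate block, this correction and leaving out each library. The fits were tested on simulated data. Every library's value is given for the 5 highest and 5 lowest genes past the threshold in each knockdown, the 6 with the smallest p for the difference and 6 paralogue groups, and other members were named for their role. The genes and lists were chosen with earlier results of these data known.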

Additional observations from a re-analysis of the deposited data

Results flagged for a closer look

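The effect of siMapk14 minus that of siMapk8+9 passed edgeR's quasi-likelihood test of the difference (adjusted p under 0.05) for 9 of 65 translation factor genes, each set against its own siControl. Over all tested genes 15.9% passed, so that the count of 9 is not above the share over all genes. On the log2 scale the difference was -1.22 for EIF4EBP1, -0.94 for EIF1, -0.91 for EIF2S2, -0.74 for EEF1G, -0.42 for EIF4B and -0.42 for EIF4A2, all with the smaller effect in siMapk14. It was 0.95 for EEF2KMT, 0.92 for EIF4G1 and 0.46 for EIF1AX. The differences of EIF1, EIF2S2, EIF4EBP1, EEF1G and EEF2KMT were past the threshold in all 21 alternatives run. Those of EIF1AX, EIF4B, EIF4G1 and EIF4A2 were not in 4, 8, 8 and 14 of the 21. The 2 experiments carry different batch labels, and batch and knockdown target cannot be told apart. Their siControl libraries, in TMM-scaled CPM set within each experiment, held 609 ± 25.8 (siMapk14 experiment) and 362 ± 5.22 (siMapk8+9 experiment) CPM of EIF1 and 69.7 ± 2.71 and 44.7 ± 2.24 CPM of EIF4EBP1 (SD, n = 3 each). For EEF2KMT the siControl means were 13.3 and 25.4 TPM, in the same order. The knockdown libraries of the 2 experiments overlapped in CPM of EEF2KMT.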

How the results depend on the processing

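The labels number replicates alike in every group but tie the numbers to nothing. Same-numbered libraries of a knockdown and its siControl had deviations correlated by 0.013, 0.012 and 0.030 (siMapk14) and by -0.007, -0.023 and -0.026 (siMapk8+9). Values this near 0 cannot show whether the numbers pair the samples. In siMapk14 each knockdown library correlated best with its own number, and in siMapk8+9 none did. With the replicate block 47 of the 49 calls were kept with siMapk14, 42 of 49 with siMapk8+9 and 6 of 9 for the difference. The correction for annotated GENCODE length and the sum of EIF3C and EIF3CL were chosen after seeing the data. Over 2081 gene-level values under alternatives 1778 kept direction and call, 230 lost the call, 45 gained one and 28 turned. Before this count, values under total-count scaling were shifted so that the median of all genes equalled that of the main fit. Without that shift, total-count scaling kept the call and direction of 17 of the 49 genes with siMapk14 and 25 of 49 with siMapk8+9.

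With total-count scaling 11 factor genes were higher and 26 lower with siMapk14, 30 passed with siMapk8+9 (15 higher), and 1 difference was higher. Corrected for length 32 passed with siMapk8+9 (25 higher), 5 differences were higher, and of the other translation genes 6 were lower with siMapk14 and 6 with siMapk8+9. DESeq2 gave 6 higher differences. Leaving out 1 library gave 5 to 10 lower calls with siMapk8+9, 6 to 29 differences, of which 2 to 10 were higher and 4 to 19 lower, and 13 to 27 lower calls among the other translation genes with siMapk8+9. The highest number of differences came without siMapk8+9 replicate 2.

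Once total-count values were shifted to the all-gene median of the main fit, directions turned mainly under the corrections for length. Without that shift, total-count scaling moved the median of the factor genes from 0.60 to -0.18 with siMapk14. With siMapk8+9 it moved from 0.71 to -0.0038. With siMapk14, EIF1AX was 0.32 on effective and 0.32 on GENCODE length, EIF3A 0.43 and 0.36, EIF4EBP2 0.28 and 0.26, EIF4E2 -0.44 and -0.27, and EIF5A -0.11 and -0.041. EIF6 was -0.032 on effective length, and EIF1AD was -0.74 and EEF1AKMT2 -0.51 on GENCODE length. With siMapk8+9, EIF3A was 0.28 and 0.17, EIF4EBP2 0.051 and 0.019, EIF5A -0.40 and -0.30, EIF6 -0.19 and -0.0098, and EEF1E1 -0.17 and -0.043. EIF4E2 was -0.54 and EIF3G -0.0017 on effective length, and EIF1AD -0.93 on GENCODE length. EEF2 was -0.0060 with siMapk14 under total-count scaling, relative to all genes, and the sum of EIF3C and EIF3CL was 0.040 with siMapk8+9. The cause was not tested. Depth limits genes under about 1 CPM, such as EIF2S3B and EEF1A2.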
